A study of Mus musculus with 6 samples.

Results

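The 10 enzymes described here make, modify or break down ceramide and sphingosine-1-phosphate (S1P), and they were measured in mpkCCD clone 11 cells treated with dDAVP or vehicle. Members were all probe sets whose platform symbol was Sptlc1, Sptlc2, Cers2, Degs1, Degs2, Ugcg, Asah1, Sphk1, Sphk2 or Sgpl1, leaving out probe sets of several genes. Each of the 10 genes was present, with 21 of the 28225 probe sets other than controls. mpkCCD clone 11 is 1 clone of an immortalised mouse kidney line that models the cortical collecting duct, a segment in which vasopressin sets water reabsorption. The dDAVP group received 0.1 nM of dDAVP (desmopressin, a synthetic agonist of the vasopressin V2 receptor) for 5 days, and the vehicle group received vehicle alone over the same time. Both groups were grown as polarized layers on membrane supports and were treated once the electrical resistance across the layer had reached 5 kohm per cm2. Each group had 3 Affymetrix Mouse Genome 430 2.0 arrays, 1 per sample, called biological replicates in the labels. Whether they were separate passages is not given, so the p-values reflect how far these 6 arrays spread, which may be technical.

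All values are log2 signals as deposited, so a difference of 1 is a 2-fold difference. The enzymes were chosen by pathway with the dDAVP-minus-vehicle changes of these arrays known, Sphk1 and Degs2 being the pair selected on their change. Their changes and adjusted p-values therefore describe where they stand in a fit over all probe sets, and are no independent evidence. Array medians lay within 0.043 of each other. The treatment could be seen in Aqp2, the vasopressin-regulated water channel, at 10.85 ± 0.072 in dDAVP cells and 6.70 ± 0.042 in vehicle cells (SD, n = 3 each). Of the principal cell markers, 8 of 10 were measured and 3 rose in limma, Aqp2 (log2 change 4.15), Avpr2 (0.52) and Fxyd4 (0.68). The others, Scnn1g (0.26), Scnn1b (0.23), Aqp3 (0.15), Scnn1a (0.02) and Hsd11b2 (-0.04), did not pass. The summed level of the 8 was 65.5 to 66.4 in dDAVP arrays and 59.4 to 60.3 in vehicle arrays. The 6 measured epithelial markers, among them Cdh16 and Epcam, had means of 10.2 to 13.3. The fibroblast, endothelial and thick limb markers Col3a1, Cdh5 and Slc12a1 had means of 2.75, 3.10 and 2.93, all under 3.56, a mark for dim signals taken from olfactory receptor genes (95th percentile of 10 probe sets). Above that mark stood 1 of 2 measured fibroblast markers (6 listed) and 0 of 1 endothelial (5 listed). Thick limb and distal tubule had 1 of 2 (5 listed), proximal tubule 2 of 3 (8 listed) and leukocytes 2 of 3 (6 listed). The fibroblast marker Col1a1 (3.63) and the thick limb and distal tubule marker Trpm6 (5.85) were above the mark. The proximal tubule gene Lrp2 (8.30) and the leukocyte gene Csf1r (9.36) were well above it. The 2 measured intercalated cell markers (8 listed), Atp6v1b1 and Atp6v0a4, were also above it. Their log2 changes of 0.32 and 0.42 did not pass (limma adjusted p = 0.153 and 0.397). Their summed level was 13.5 to 14.0 in dDAVP arrays and 13.0 to 13.2 in vehicle arrays. That of the 3 measured leukocyte markers was 18.25 to 18.30 in dDAVP arrays and 17.89 to 18.15 in vehicle arrays, with positive log2 changes of Ptprc (0.22, below the 3.56 mark) and Cd68 (0.20) and a negative one of Csf1r (-0.13), none of which passed. The part of these lists in the values below was not tested, and in bulk RNA more cells of a type cannot be told apart from more RNA per cell.

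Sphingolipids are membrane lipids built on a sphingoid base. Serine palmitoyltransferase joins serine to palmitoyl-CoA, ceramide synthases add a fatty acid to give dihydroceramide, and a desaturase turns this into ceramide, from which sphingomyelin and the glycosphingolipids of epithelial apical membranes are made. Ceramidases release sphingosine, which sphingosine kinases phosphorylate to S1P, a signalling lipid that acts on G protein-coupled receptors until phosphatases or S1P lyase remove it. The kidney is rich in glycosphingolipids and in phytoceramides, the hydroxylated ceramides that the second desaturase, DEGS2, can make.

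RefSeq promoter windows (build GRCm38.p6, 250 bases before to 50 after a transcript start) were found for 9 of the 10 genes, all but Asah1. Because dDAVP raises cAMP, they were searched on both strands for the cAMP response element, as the palindrome TGACGTCA and as its shorter core TGACG. Each palindrome also counts as a core on both strands. The windows of both enzymes that rose, Degs2 and Sphk1, and of Sphk2, the kinase that did not pass the test, are shown, 1 window each, so that the element can be seen where a window held it. Capitals mark cores on either strand, and each window is written 5′ to 3′ on the strand of its gene.
Degs2, chr12:108702257-108702556, minus strand: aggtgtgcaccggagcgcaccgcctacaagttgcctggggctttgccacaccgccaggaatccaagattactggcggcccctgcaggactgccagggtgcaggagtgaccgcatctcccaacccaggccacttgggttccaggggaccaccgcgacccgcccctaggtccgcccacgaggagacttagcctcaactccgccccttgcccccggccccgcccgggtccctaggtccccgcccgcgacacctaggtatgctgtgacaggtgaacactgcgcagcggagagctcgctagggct
Sphk1, chr11:116531661-116531960, plus strand: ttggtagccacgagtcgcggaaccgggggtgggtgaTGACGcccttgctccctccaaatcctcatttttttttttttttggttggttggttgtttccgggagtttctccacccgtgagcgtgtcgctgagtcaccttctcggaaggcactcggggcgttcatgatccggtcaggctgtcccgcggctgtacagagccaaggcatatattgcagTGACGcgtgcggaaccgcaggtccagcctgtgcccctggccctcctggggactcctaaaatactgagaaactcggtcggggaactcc
Sphk2, chr7:45717953-45718252, minus strand: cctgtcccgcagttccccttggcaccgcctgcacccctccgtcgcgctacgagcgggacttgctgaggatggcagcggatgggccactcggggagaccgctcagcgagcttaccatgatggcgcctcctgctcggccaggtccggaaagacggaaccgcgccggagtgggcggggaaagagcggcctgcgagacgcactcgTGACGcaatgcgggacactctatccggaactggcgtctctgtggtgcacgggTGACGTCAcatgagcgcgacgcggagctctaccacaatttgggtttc
The Degs2 window held neither form. The Sphk1 window held cores that begin at -214 and -37 relative to the start. Of the 5 Sphk1 windows, 2 that overlap by 226 bases held the same cores, at the same positions of the chromosome, and 3 held none. The Sphk2 window held a core at -49 and the palindrome from base 4 after the start, and the second of the 2 Sphk2 windows held neither form. Among the 15 windows of the 9 genes, the palindrome was in 1 and a core in 4, the fourth being that of Sptlc1. The cores of Sphk1 are thus counted in 2 of the 4. Over all 32851 windows of the table, 1.79% held the palindrome and 20.8% a core. These matches describe letters only, and binding at them was not measured.

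Among the 21 probe sets, 2 passed a Benjamini-Hochberg adjusted p of 0.05 in limma, 1 of Degs2 and 1 of Sphk1, both higher with dDAVP, and 0 were lower. Over all 28225 probe sets 0.216% passed, 0.188% higher (53) and 0.0283% lower (8). With each array scaled to its hybridisation controls 275 were higher and 7 lower. The median log2 change of the 21 probe sets was 0.0016, beside 0.0039 over all probe sets. Of the 21, 12 were positive and 9 negative, where 14603 of all probe sets were positive and 13622 negative. By brightest probe set (the highest mean over the 6 arrays), the median of the 10 genes was -0.0096, beside 0.012 over 12364 genes. Groups did not overlap on 6 of the 21 probe sets, 4 with dDAVP above and 2 with dDAVP below, where 13.4% of all probe sets showed no overlap, 8.07% with dDAVP above and 5.35% with dDAVP below. SDs within a group of 3 arrays ran from 0.0093 to 0.28.

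**Figure D1:**
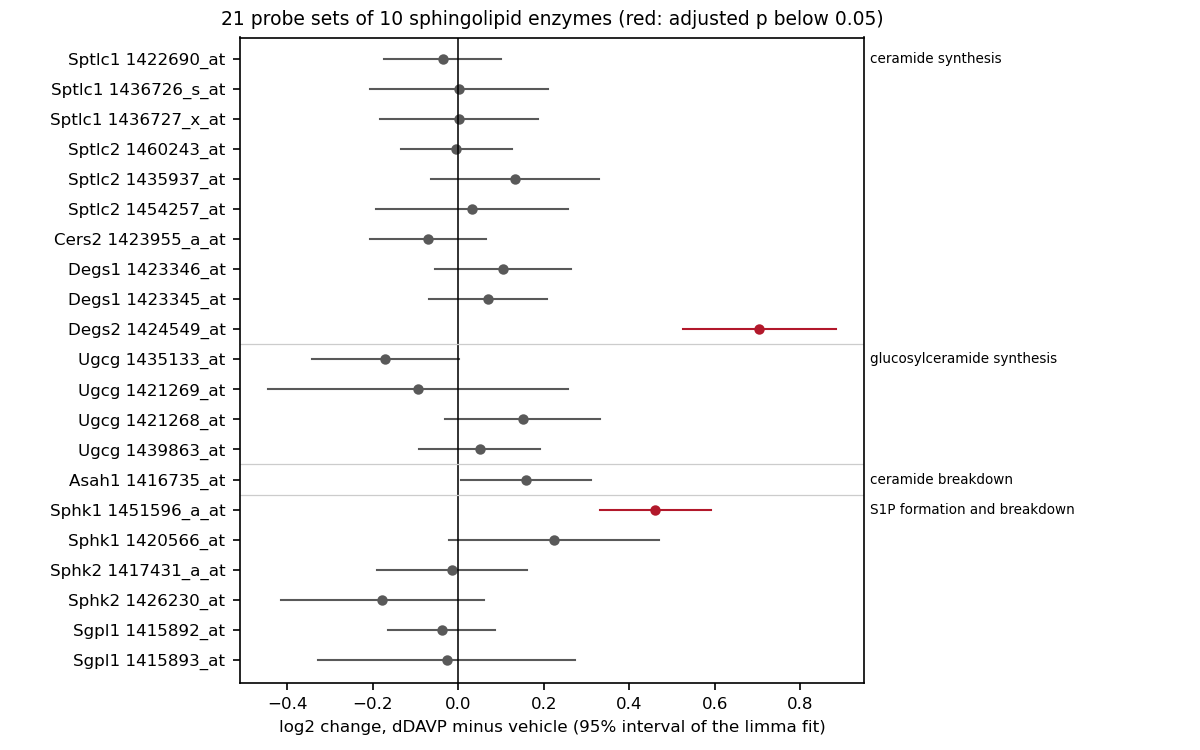
Log2 change (dDAVP minus vehicle) of the 21 probe sets of the 10 enzymes, in order of role, with points for the estimate and lines for its 95% interval in limma. The 2 red points, Degs2 at 0.70 and Sphk1 at 0.46, passed an adjusted p of 0.05, and the other 19 lay between -0.18 and 0.22.

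The first enzymes of ceramide synthesis did not pass. Sptlc1, a subunit of serine palmitoyltransferase, measured 9.35, 9.34 and 9.36 in dDAVP cells, against 9.38, 9.45 and 9.33 in vehicle cells, on its brightest probe set. The 2 groups overlapped, with a log2 change of -0.04 ± 0.059 (SE). Its dimmer probe sets gave 0.0016 and 0.0011, and the dimmest, at a mean of 3.21, lay below the olfactory receptor level. Sptlc2, the catalytic partner of Sptlc1, measured 9.54, 9.49 and 9.46 in dDAVP cells, against 9.48, 9.53 and 9.49 in vehicle cells. Its change was -0.0043 ± 0.056, with a 95% interval of 0.911-fold to 1.09-fold. The other Sptlc2 probe sets gave 0.13 ± 0.085 and 0.03 ± 0.097. Cers2, which makes ceramides with very long acyl chains, measured 10.12, 10.05 and 10.16 in dDAVP cells, against 10.20, 10.15 and 10.19 in vehicle cells. The lowest vehicle array lay just below the highest dDAVP array, and the change was -0.07 ± 0.058 (limma adjusted p = 0.853).

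Of the desaturases, Degs2 rose 1.63-fold with dDAVP (95% interval 1.44 to 1.84). Degs2 encodes a dihydroceramide desaturase that also acts as a C4-hydroxylase. Its only deposited probe set measured 7.00, 6.91 and 7.01 in dDAVP cells, against 6.38, 6.14 and 6.29 in vehicle cells. Every dDAVP array lay above every vehicle array, with a gap of over 0.5 between the groups. The means were 6.97 ± 0.052 in dDAVP cells and 6.27 ± 0.12 in vehicle cells (SD, n = 3 each), a log2 change of 0.70 ± 0.077 (SE, limma adjusted p = 0.0159). It had the 35th largest rise of all 28225 probe sets. The call ended without dDAVP replicate 1 (0.69, adjusted p = 0.0913), dDAVP replicate 2 (0.73, adjusted p = 0.0751), dDAVP replicate 3 (0.69, adjusted p = 0.0866) or vehicle replicate 3 (0.71, adjusted p = 0.100), and with arrays scaled to their poly-A controls (0.68, adjusted p = 0.0656). Degs1, the main dihydroceramide desaturase of most tissues, measured 9.32, 9.24 and 9.36 in dDAVP cells, against 9.20, 9.11 and 9.29 in vehicle cells, on its brightest probe set. These groups overlapped, and the change was 0.11 ± 0.069 (adjusted p = 0.788). On the second Degs1 probe set the groups did not overlap, 9.06 to 9.19 in dDAVP cells and 9.03 to 9.06 in vehicle cells, but the change of 0.07 ± 0.060 did not pass (adjusted p = 0.859). The difference between the changes of Degs2 and Degs1 was not tested.

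**Figure D2:**
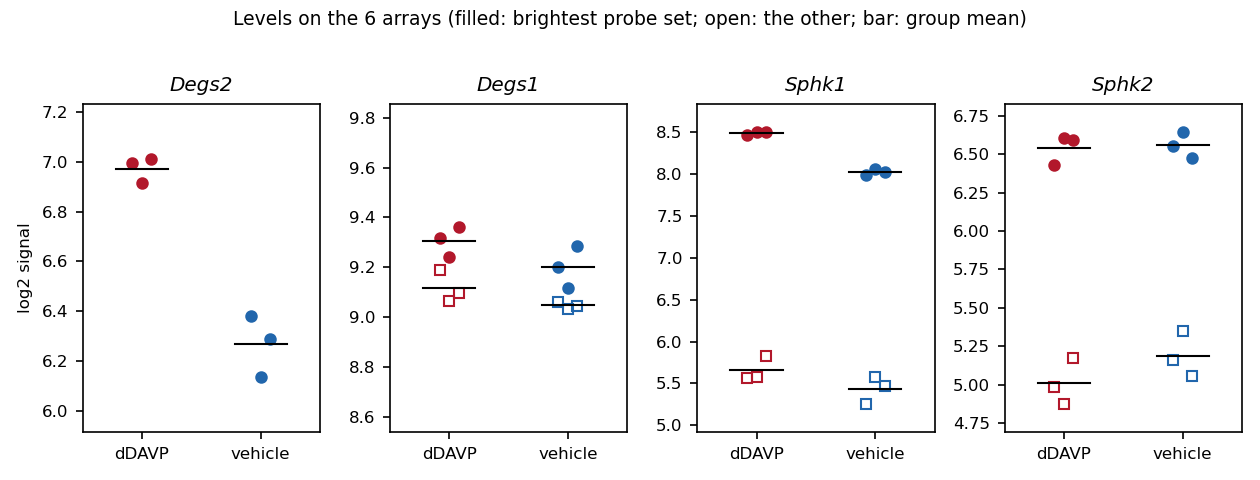
Log2 signal of Degs2, Degs1, Sphk1 and Sphk2 on each array, dDAVP left and vehicle right, with filled points for the brightest probe set, open points for the other and bars for group means. The axis range differs between panels. The groups are apart for Degs2 (6.97 and 6.27) and for the brightest Sphk1 probe set (8.49 and 8.03). They are narrowly apart for the dimmer Degs1 probe set (9.12 and 9.05). The brightest Degs1 probe set, the other Sphk1 probe set and both Sphk2 probe sets overlap.

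The sphingosine kinases make S1P. Sphk1, which in many cell types is the kinase activated by growth factors, rose 1.38-fold on its brightest probe set (95% interval 1.26 to 1.51). That probe set measured 8.46, 8.50 and 8.50 in dDAVP cells, against 7.99, 8.06 and 8.03 in vehicle cells. The groups were far apart, with SDs of 0.020 in dDAVP cells and 0.038 in vehicle cells, and the log2 change was 0.46 ± 0.056 (SE, limma adjusted p = 0.0243), the 108th largest rise. The call ended without any 1 of the 6 arrays (log2 change 0.44 to 0.48, adjusted p = 0.0683 to 0.159) and with arrays scaled to poly-A controls (0.44, adjusted p = 0.137). It also ended with the mean of both Sphk1 probe sets (0.34, adjusted p = 0.0899). The second, dimmer Sphk1 probe set measured 5.57, 5.57 and 5.83 in dDAVP cells, against 5.26, 5.58 and 5.47 in vehicle cells. Vehicle replicate 2 lay above 2 of the dDAVP arrays there, and the change of 0.22 ± 0.11 did not pass (adjusted p = 0.668). Which transcripts each probe set detects was not examined here.

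Sphk2, the second kinase, which is found in the nucleus and other organelles, measured 6.43, 6.61 and 6.59 in dDAVP cells, against 6.55, 6.64 and 6.48 in vehicle cells. The groups overlapped, and the log2 change was -0.01 ± 0.076 (95% interval 0.877-fold to 1.12-fold). Its dimmer probe set gave -0.18 ± 0.10 (adjusted p = 0.746), also with overlap. Sgpl1, the lyase that irreversibly cleaves S1P, measured 8.67, 8.69 and 8.69 in dDAVP cells, against 8.74, 8.70 and 8.73 in vehicle cells. All dDAVP arrays were lower, but the change was only -0.04 ± 0.054 (adjusted p = 0.925). On the second Sgpl1 probe set the groups overlapped, at -0.03 ± 0.13.

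Asah1, the lysosomal acid ceramidase, had a single probe set at 10.50, 10.55 and 10.61 in dDAVP cells, against 10.33, 10.38 and 10.48 in vehicle cells. All dDAVP arrays were above all vehicle arrays by a narrow margin, and the log2 change of 0.16 ± 0.066 did not pass (unadjusted p = 0.0440 in limma, adjusted p = 0.608). Ugcg, which makes glucosylceramide, the first glycosphingolipid, had 4 probe sets whose changes differed in sign. The brightest measured 7.01, 6.95 and 6.81 in dDAVP cells, against 7.14, 7.02 and 7.12 in vehicle cells, at -0.17 ± 0.074 (adjusted p = 0.630). All dDAVP arrays were lower on it. The others gave -0.09 ± 0.15, 0.15 ± 0.078 and 0.05 ± 0.061, each with overlap, and the last lay below the olfactory receptor level. Among the 8 genes that did not pass, the 95% intervals of the brightest probe sets lay between 0.789-fold (Ugcg) and 1.24-fold (Asah1). The direction of the small changes depends on the scaling. With arrays scaled to their hybridisation controls, which moved the median of all probe sets to 0.15, 19 of the 21 member probe sets were positive with a median of 0.15, and Cers2, for example, stood at 0.08.

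The profiles most like that of Sphk1 over the 6 arrays, by the root mean square difference between centred log2 values, were those of Avpi1 (0.038), a gene named for its induction by vasopressin, Gjb1 (0.039), which encodes connexin 32, and Ghr (0.042), the growth hormone receptor. Their log2 changes were 0.41, 0.50 and 0.43, and of these Gjb1 passed (limma adjusted p = 0.0345). Those most like Degs2 were Lurap1l (0.085), Arhgef3 (0.085) and Rgs2 (0.096), a regulator of G protein signalling. Lurap1l (0.69, adjusted p = 0.0166) and Arhgef3 (0.77, adjusted p = 0.00672) passed, and Rgs2 (0.62, adjusted p = 0.0928) did not. All these arrays fall into the same 2 groups, so any genes with changes of like size come out alike on this measure.

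Of 65 other listed genes of sphingolipid metabolism and S1P signalling, 47 were matched, and 0 passed in either direction on the brightest probe set, where 0.291% of 12364 genes did. An unadjusted p below 0.05 in limma was seen for 4 with positive and 1 with a negative change, where 5.51% of all genes had such a positive and 2.3% such a negative change. The median log2 change of the 47 was 0.05, beside 0.012 over all genes. Of the 47, 34 were positive and 13 negative, where 6844 of all 12364 genes were positive and 5520 negative. With median centring 30 of the 47 were positive and 17 negative. Hybridisation scaling moved the median of all probe sets to 0.15, and there 46 of the 47 were positive and 1 negative, with a median of 0.20. Among the 8 genes of S1P removal and export, Sgpp2, an S1P phosphatase, measured 9.04, 8.95 and 8.87 in dDAVP cells, against 8.61, 8.57 and 8.62 in vehicle cells. The groups did not overlap, and the change of 0.35 ± 0.065 did not pass (adjusted p = 0.138). It passed in 4 alternatives given with the processing. Its relative Sgpp1 was at 0.06 ± 0.069 and the S1P exporter Spns2 at 0.0033 ± 0.054. The single receptor matched, S1pr2, was at 0.03 ± 0.11.

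**Figure D3:**
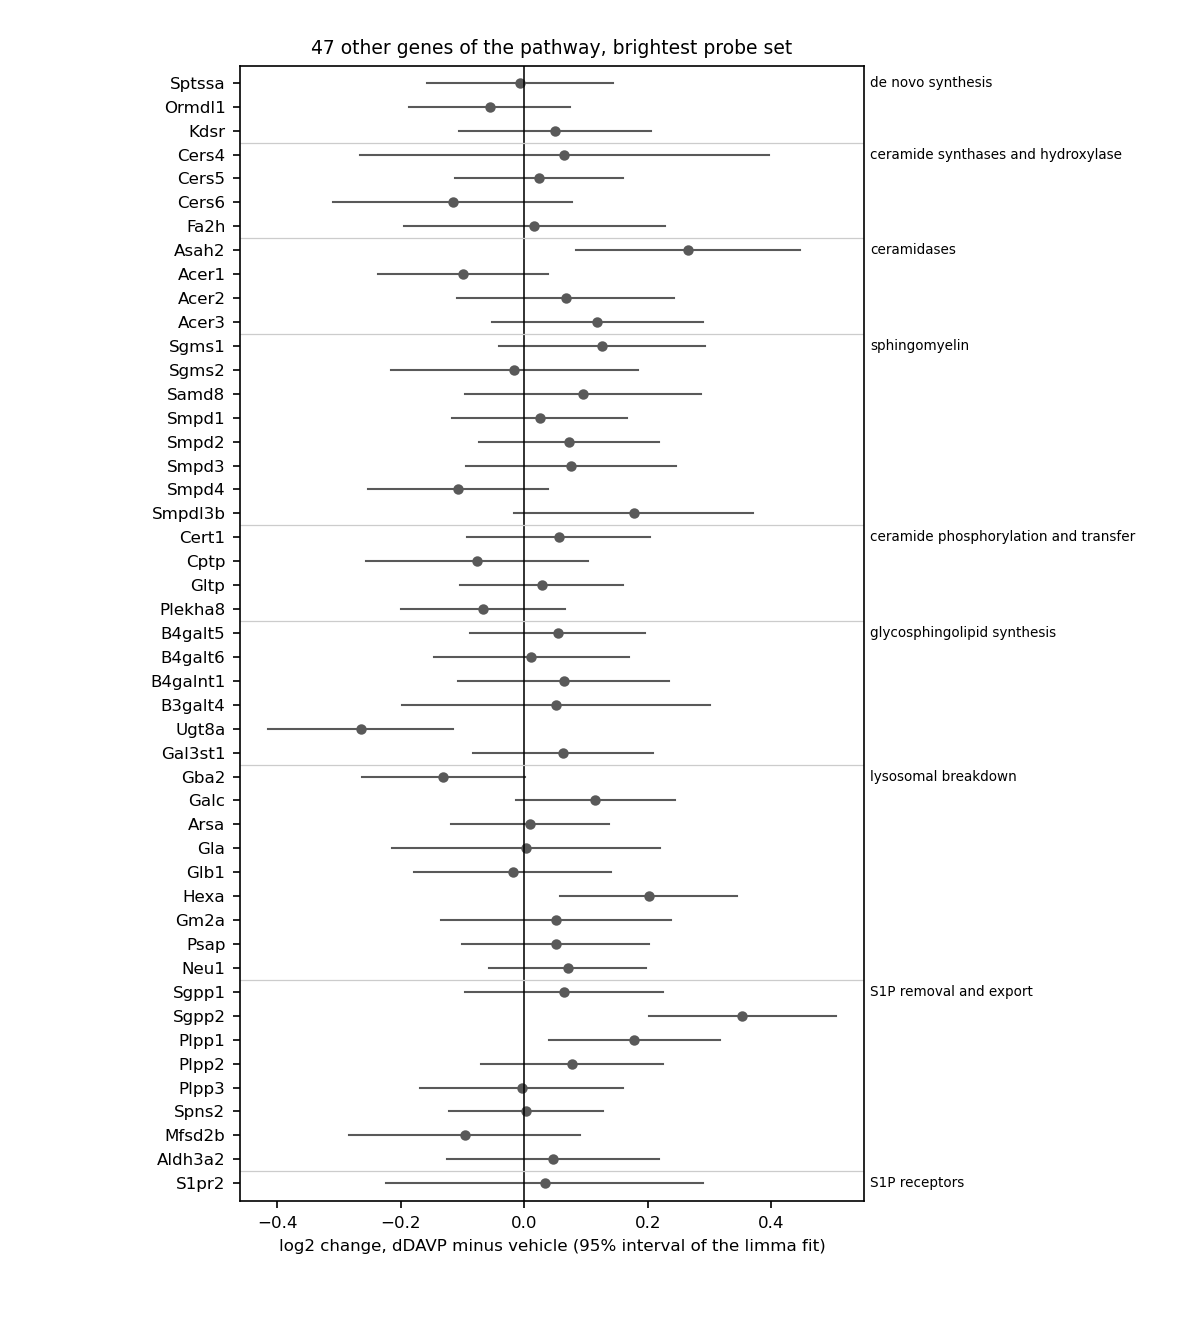
Log2 change (dDAVP minus vehicle) of the brightest probe set of 47 other pathway genes, by role, with points for the estimate and lines for its 95% interval in limma. None (0) passed an adjusted p of 0.05, the largest change being Sgpp2 at 0.35 and the lowest Ugt8a at -0.26.

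In the synthesis branch, the reductase Kdsr was at 0.05 ± 0.067 and the ceramide synthases Cers5 and Cers6 at 0.02 ± 0.059 and -0.12 ± 0.083. The fatty acid hydroxylase Fa2h was at 0.02 ± 0.091 at a mean of 4.40. The sphingomyelin synthases Sgms1 and Sgms2 were at 0.13 ± 0.072 and -0.02 ± 0.086, acid sphingomyelinase Smpd1 at 0.03 ± 0.061 and the ceramide transfer protein Cert1 at 0.06 ± 0.064. None of these 8 passed. The dimmer Sgms2 probe set was at 0.25 ± 0.092 and did not pass (limma adjusted p = 0.551). All dDAVP arrays lay above all vehicle arrays on it. Alkaline ceramidase Acer3 was at 0.12 ± 0.074, and Acer2 lay below the olfactory receptor level. The lactosylceramide synthase B4galt5 was at 0.05 ± 0.061 and Gal3st1, which makes sulfatide, at 0.06 ± 0.063.

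**Figure D4:**
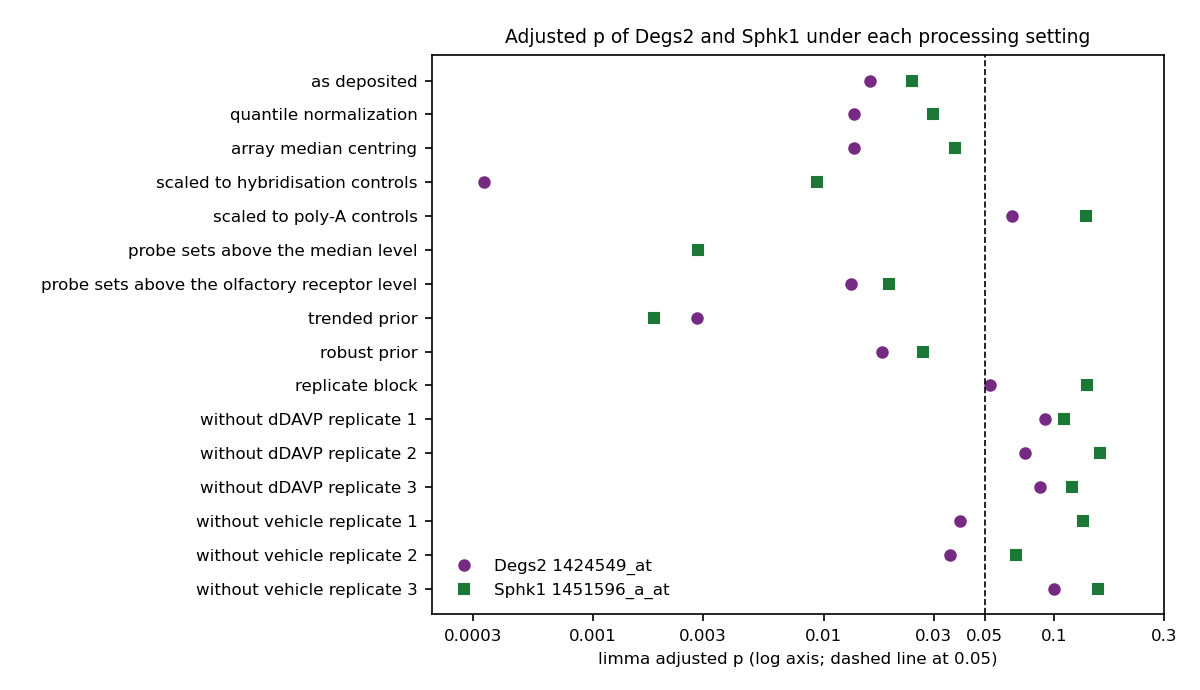
Limma adjusted p (log axis) of Degs2 (circles) and the brightest Sphk1 probe set (squares) under 16 settings, with the threshold of 0.05 as a dashed line. Both lie left of the line as deposited (0.0159 and 0.0243) and right of it with poly-A scaling (0.0656 and 0.137), and Degs2 is not plotted where its probe set fell under the filter at the median level.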

How the data were processed

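Total RNA was measured on 6 arrays. The authors deposited log2 signals, 1 per probe set and array, running from 2.15 to 14.1. Expression Console 1.1 (Affymetrix), RMA and MAS5 are listed per the submitters' processing notes without saying what each did, so the method and any filter before deposition are not given in the sources used here. All counts of probe sets, percents passed and genes measured or matched refer to the 28287 probe sets as deposited. The olfactory receptor mark rests on the same probe sets. A gene or probe set missing among them may still be on the array. Summaries of dim probe sets can compress differences. Groups came from the sample titles, and the members and lists were chosen with earlier results of these data known.

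All 6 arrays were fitted in limma 3.58.1 (R 4.3.3, lmFit and eBayes, no covariates) over 28225 probe sets, leaving out 62 controls. P-values were adjusted by Benjamini-Hochberg over all of them, with a threshold of 0.05. Errors of changes are those of the moderated fit. The code was tested on simulated data with independent noise, 200 probe sets being changed in each of 10 runs. It recovered 9.48% of log2 changes of 0.3, 79.8% of 0.5 and 99.8% of 1. Of the calls there, 5.84% were false. The noise was drawn from the moderated variances and the sizes from 0.3, 0.5, 1 and 2. More probe sets were changed in each run than the 61 that passed in these data, so recovery here may differ. Symbols came from the platform annotation (23097 probe sets with 1 symbol, 611 with several, 4517 with none), with 23026 matched to RefSeq by Entrez ID. A gene stood as its probe set with the highest mean. Named were all members, 22 fixed pathway genes where measured, pathway genes that passed, Aqp2, and the 3 genes most like Sphk1 and Degs2. Others were chosen after their values were seen. Alternatives were other normalizations, scaling to added controls, filters on dim probe sets, other priors, a replicate block, fits without each array, a threshold of 0.01 and averaging over the probe sets of a gene. The number of arrays limits the precision.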

Additional observations from a re-analysis of the deposited data

How the results depend on the processing

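As deposited, 53 probe sets of all genes were higher and 8 lower, with 2 member probe sets and 0 pathway genes higher. Scaling to hybridisation controls gave 275 higher (97.5% of calls, against 86.9% as deposited) and scaling to poly-A controls 4 lower. The filter at the median level gave 21 lower, that at the olfactory receptor level 13 lower, and the trended prior 116 higher and 30 lower. A threshold of 0.01 left 19 higher and 4 lower. Leaving out 1 array gave 18 to 40 higher and 4 to 6 lower. Of the member probe sets, 0 were called with poly-A scaling or at 0.01, 0 to 1 without 1 array, and 1 with the filter at the median level, which removed Degs2. Sgpp2 was the 1 pathway gene called with hybridisation scaling (0.50, limma adjusted p = 0.0202), the filter at the median level (adjusted p = 0.0328), the trended prior (adjusted p = 0.0168) and the mean of probe sets (adjusted p = 0.0443). Over the other alternatives its adjusted p was 0.112 to 0.719. The replicate number as a block left 21 higher and 3 lower and 0 member calls (Degs2 adjusted p = 0.0527, Sphk1 adjusted p = 0.139). Deviations of same-numbered arrays correlated at 0.20, 0.05 and -0.05, and those of other pairs at -0.21 to 0.17, with dDAVP replicate 3 closest to vehicle replicate 2, so the numbers were not taken to pair the arrays. Of 335 recomputed member values, 302 kept their call or moved by less than the SD, 17 lost the call, 0 reversed a call, and 16 uncalled values moved further, 13 of them with hybridisation scaling. Only Degs2 and the brightest Sphk1 probe set had a call to lose. Other priors, the filters, the block and the threshold of 0.01 leave the log2 change of a probe set as it was, so uncalled values could not move there. Except where the filter took Degs2 out, the cause of the differences between settings was not tested.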

Other observations

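Several pathway genes, chosen after their values were seen, had probe sets of one direction without passing. The share of all genes with probe sets of one direction was not computed, and probe sets of a gene share the same 6 arrays. All 3 Kdsr probe sets were also positive, at only 0.05, 0.02 and 0.13. All 3 Asah2 probe sets (neutral ceramidase) were positive, at 0.27, 0.13 and 0.28. The brightest of them measured 7.52, 7.54 and 7.39 in dDAVP cells, against 7.29, 7.27 and 7.09 in vehicle cells (limma adjusted p = 0.407). All 4 Sgms1 probe sets were positive, between 0.13 and 0.30. Both Ugt8a probe sets (galactosylceramide synthase) were negative, at -0.26 and -0.13, the brighter one at 9.35, 9.29 and 9.31 in dDAVP cells and 9.56, 9.51 and 9.67 in vehicle cells (adjusted p = 0.293). Hexa, a lysosomal hexosaminidase subunit with 1 probe set, was at 0.20 ± 0.062 (adjusted p = 0.430). The lipid phosphate phosphatase Plpp1 was at 0.18 ± 0.060 (adjusted p = 0.482).

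The 4 Cert1 probe sets differed in sign, at 0.06, 0.09, 0.32 and -0.33, with SEs of 0.064, 0.081, 0.16 and 0.18.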
